A study of Rattus norvegicus with 65 samples.

Results

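Gal, Tac1, Nts, Cck, Vip, Adcyap1, Grp, Nms, Nmu and Nucb2 encode the precursors of 10 hypothalamic neuropeptides, and their RNA is described here in the hypothalamus of rats after bariatric surgery, food restriction or gut hormone treatment. The genes were chosen by symbol and not by any measured value. They were 10 of the 38513 genes in the deposited table of estimated read counts, and all 10 were among the 21871 genes that passed the filter on low counts. Nms is spelled NMS in the table and was matched without regard to case.

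The study asked whether RYGB and gut hormones that rise after it change gene expression in the hypothalamus of obese rats. Whole hypothalamus was taken from 65 male Wistar rats, with 1 library of stranded poly-A RNA per animal. Rats were 9 to 10 weeks old at the start, obesity was induced by 6 weeks of high-fat feeding (60% of calories from fat), and tissue was taken 4 weeks after the intervention following a fast of 10 h. The work ran in 2 experimental periods, batch A with 37 libraries and batch B with 28, and each comparison was also fitted within the batches that hold both of its groups.

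RYGB (Roux-en-Y gastric bypass) was performed in 14 animals, of which 11 belonged to batch A and 3 to batch B. The 11 sham-operated animals came as 5 from batch A and 6 from batch B. BWM stands for 7 sham-operated animals of batch A, whose food was restricted to match the body weight of RYGB rats. The lean group had 6 animals of batch A, for which the labels give neither a diet nor a treatment. Saline by pump and injection was given to 8 animals, with 3 from batch A and 5 from batch B. PYY3-36 was delivered by osmotic minipump at 0.1 mg/kg/day to 4 animals of batch B, and liraglutide, an agonist of the GLP-1 receptor, was injected at 0.4 mg/kg/day in 5 animals of batch B. Both agents together were given to 10 animals, 5 in each batch. The treated, sham, BWM and saline animals shared the preceding high-fat diet, and all of these except BWM could choose freely between high-fat and low-fat food (10% of calories from fat). Lean and BWM samples exist in batch A alone, and samples with PYY3-36 or liraglutide alone exist in batch B alone.

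Neuropeptides are cleaved from larger precursors, packed into dense core vesicles and released from neurons to act on G protein-coupled receptors. In the hypothalamus, single peptides are made by restricted groups of neurons, so a small piece of neighbouring tissue can change a peptide's share of all RNA. Several of the peptides named here act on feeding, on body temperature, on the pituitary or on the daily clock of the suprachiasmatic nucleus.

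The region before the gene start is given for Gal and Nts. Gal is shown because its level was lower, with overlap, in libraries poor in hypothalamic markers than in the others, and Nts because it differed between the batches. Both are RefSeq sequences of assembly GRCr8 and cover the 250 bases before the annotated start, read 5′ to 3′ on the gene's strand. The Gal window lies at chr1:210084573-210084822 on the minus strand and the Nts window at chr7:39460889-39461138 on the minus strand. Of the 10 genes, 8 had a promoter entry, and Cck and Nucb2 were named only. Capitals mark matches to TATAAA, the box of core promoters, to TGACG, the core of the cAMP response element, and to TGACTCA, the AP-1 site, all searched on both strands.
Gal: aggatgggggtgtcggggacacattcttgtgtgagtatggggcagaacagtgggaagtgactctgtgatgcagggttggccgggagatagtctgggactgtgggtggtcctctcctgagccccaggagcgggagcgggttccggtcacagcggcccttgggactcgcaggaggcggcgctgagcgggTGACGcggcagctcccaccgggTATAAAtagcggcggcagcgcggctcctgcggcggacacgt
Nts: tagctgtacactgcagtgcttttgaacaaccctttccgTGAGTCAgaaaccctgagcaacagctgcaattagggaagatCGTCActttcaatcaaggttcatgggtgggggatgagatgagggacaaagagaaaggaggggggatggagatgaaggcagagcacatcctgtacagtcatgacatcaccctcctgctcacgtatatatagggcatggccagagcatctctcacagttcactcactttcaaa
The Gal window held TATAAA at 41 to 36 bases and TGACG at 63 to 59 bases before the start. In the Nts window, CGTCA is TGACG read on the other strand, at 171 to 167 bases, and TGAGTCA is TGACTCA read on the other strand, at 212 to 206 bases before the start. Among 33469 promoter windows of the same length, 12.9% held TATAAA, 18.2% held TGACG and 4.05% held TGACTCA. A match describes letters and not a binding site.

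Libraries held between 20040821 and 36539714 counts on genes, with batch medians of 29571483 (A) and 23385849 (B). The summed level of 24 hypothalamic marker genes, which include none of the 10 peptides, was under 700 CPM (counts scaled to library size) in 13 of 65 libraries. Of these, 4 were sham, 2 each were lean, liraglutide and saline, 1 each was BWM, PYY3-36 and PYY3-36 + liraglutide, and 0 were RYGB. The sum was at most 590 CPM in these 13 and between 915 and 8650 CPM in the other 52. The summed level of 12 pituitary markers exceeded 100 CPM in 16 libraries and reached 77000 CPM in BWM replicate 5. These were 5 of 14 RYGB, 3 of 7 BWM, 1 of 11 sham, 2 of 8 saline, 2 of 4 PYY3-36, 1 of 5 liraglutide, 1 of 10 PYY3-36 + liraglutide and 1 of 6 lean libraries. Both limits were set after the values were seen, and the RYGB results of the 10 genes and of the receptors are given with and without these libraries. In bulk tissue, fewer cells of a type and less RNA per cell cannot be told apart.

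Per length, Tac1 stood highest and Nms lowest of the 10. The levels in this paragraph are FPKM, CPM per kilobase of exon, as the median over 65 libraries with the range. Tac1, which encodes substance P and neurokinin A, had 66.4 (11.7 to 325), and Gal, which encodes galanin, had 51.8 (0.139 to 109). Nts, the precursor of neurotensin, had 33.5 (4.7 to 96). Tac1 was above Gal in 46 of 65 libraries and Gal above Nts in 42, so neighbours in this order often changed places. Nucb2, the precursor of nesfatin-1, had 26.7 (14.1 to 69.5), and Cck, which encodes cholecystokinin, had 23.2 (3.96 to 300). Nucb2 was above Cck in only 37 libraries. Adcyap1, which encodes PACAP, had 12 (0.148 to 23.5). Vip, encoding vasoactive intestinal peptide, had 4.4 (0.842 to 31.4), and Grp, encoding gastrin-releasing peptide, had 4.37 (0.863 to 45.4). Vip and Grp could not be ordered, since Vip was the higher in 35 of 65 libraries. Nmu, encoding neuromedin U, had 0.44 (0 to 18.4) and Nms, encoding neuromedin S, had 0.243 (0 to 6.06). These last levels lay above 21.3% and 15.5% of the tested genes, against 94.4% for Tac1. Nms had 0 counts in 23 of 65 libraries, where 3 counts is the limit that a count of 0 allows, and at most 82 counts in any.

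On the Rnor_6.0 genome the genes lie on 7 chromosomes, at chr4:33638853-33646819 (Tac1), chr1:218653059-218657922 (Gal), chr7:44111594-44120998 (Nts), chr1:185106773-185143278 (Nucb2), chr8:130120525-130127515 (Cck), chr9:121705897-121725736 (Adcyap1), chr1:42169307-42177582 (Vip), chr18:61563458-61576818 (Grp), chr14:34353683-34381968 (Nmu) and chr9:45605552-45616912 (Nms). Tac1, Vip, Grp, Nmu and Nms are on the plus strand, and the others are on the minus strand. Counts refer to the exons of each gene.

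**Figure D1:**
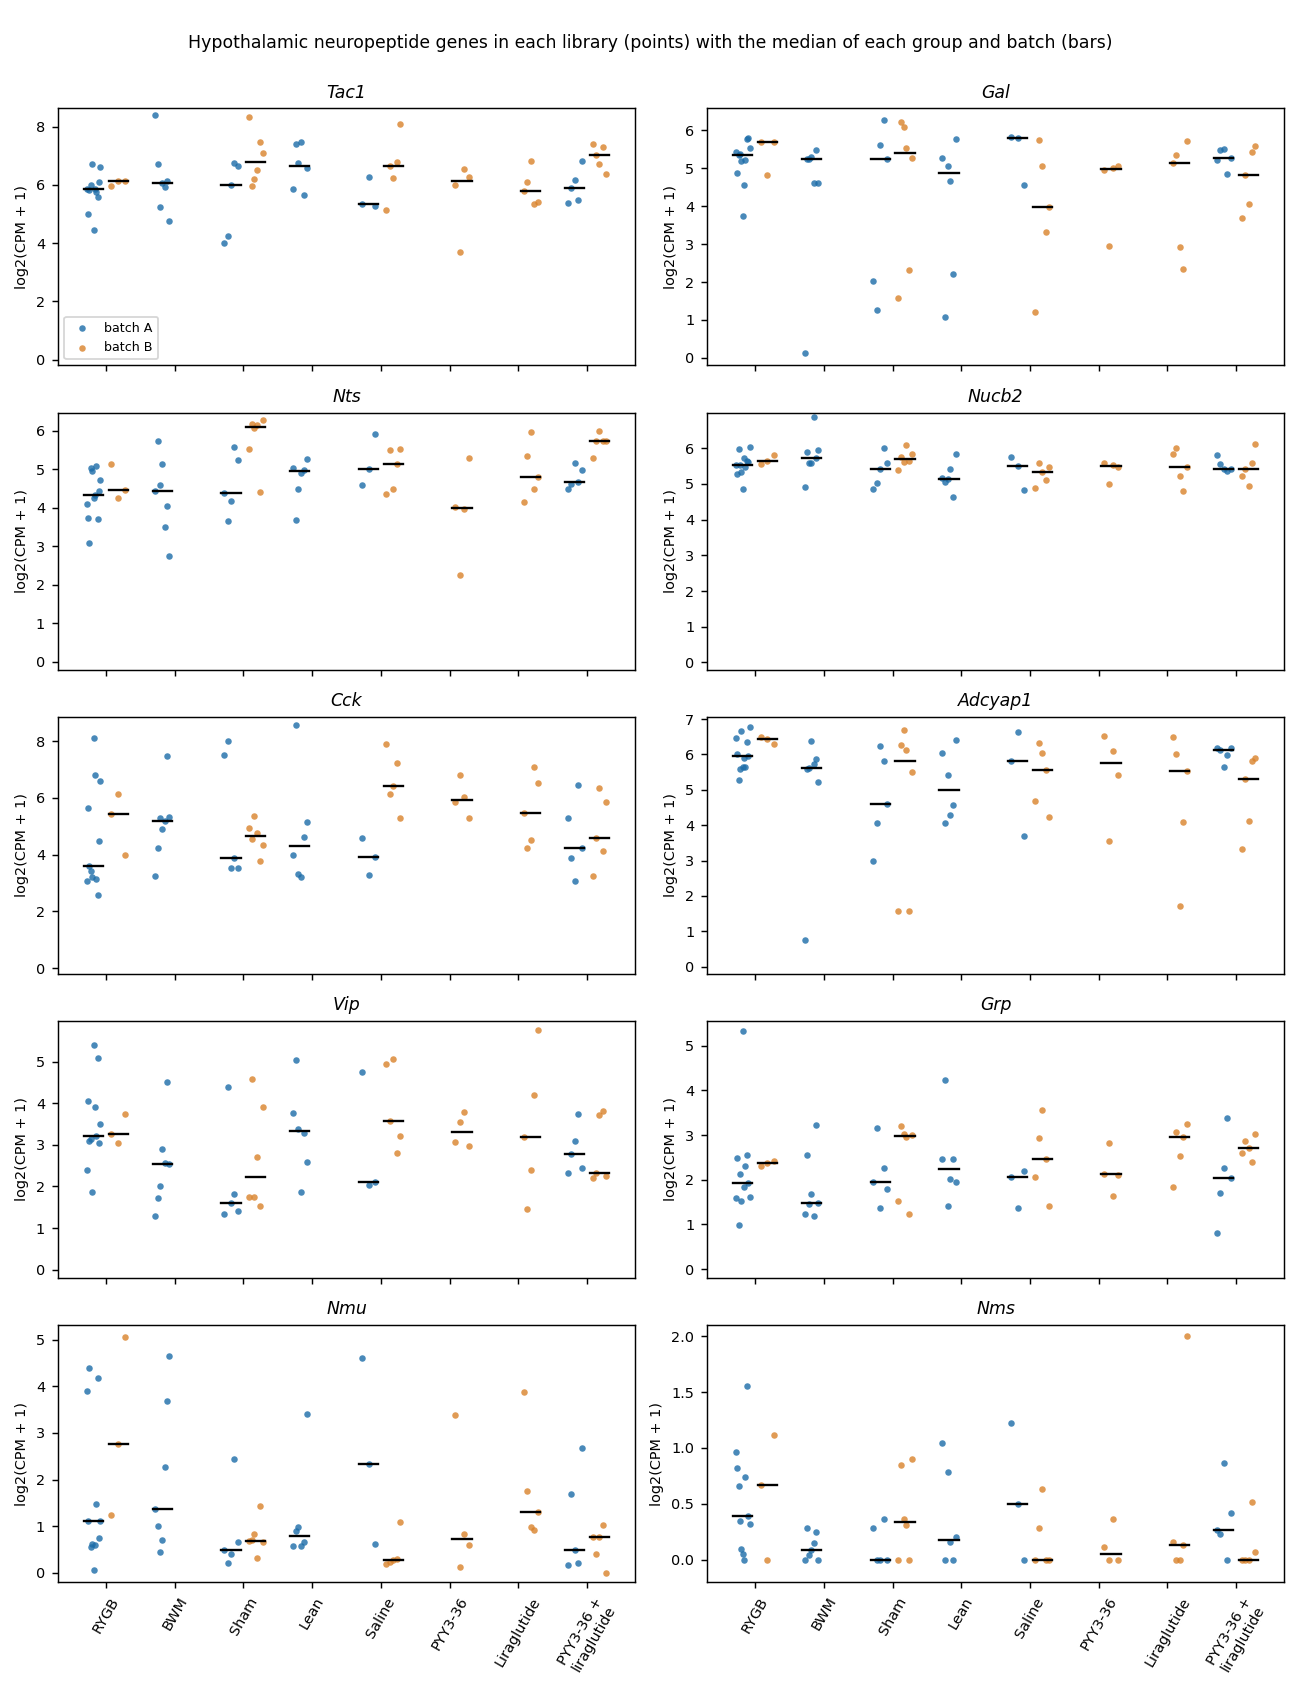
Levels of the 10 peptide genes in log2(CPM + 1) by group, 1 point per library, with batch A in blue, batch B in orange and a bar at the median of each group and batch. The groups overlapped in every panel, and Nmu in RYGB ran from 0.0359 to 32.4 CPM.

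The 10 genes varied widely between animals of the same group. The biological coefficient of variation in the edgeR model was 1.64 for Nms, 1.3 for Nmu, 1.02 for Cck, 0.855 for Gal, 0.806 for Vip, 0.766 for Adcyap1, 0.714 for Grp, 0.567 for Tac1, 0.485 for Nts and 0.267 for Nucb2. The median of all tested genes was 0.255. Of the tested genes, 99.1% varied less than Nms, 95.3% less than Cck and 52.2% less than Nucb2, so the 10 ran from a typical gene to the far end of the range.

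RYGB was compared with the sham operation to ask what the bypass changes at 4 weeks. Nmu, a peptide that lowers food intake and is also made in the anterior pituitary, was higher after RYGB and was the only 1 of the 10 genes to pass the test, 1 of 10 members where 13% of all tested genes were called. Among the RYGB animals of batch A, Nmu was 13.9 in replicate 1, 1.15 in replicate 2, 19.9 in replicate 3, 0.475 in replicate 4, 0.539 in replicate 5, 0.0359 in replicate 6, 0.513 in replicate 7, 1.78 in replicate 8, 17.2 in replicate 9, 0.684 in replicate 10 and 1.16 CPM in replicate 11. In batch B it was 1.37, 5.77 and 32.4 CPM in replicates 12, 13 and 14. The sham animals had 0.409, 0.165, 0.315, 4.44 and 0.581 CPM in batch A and 0.604, 0.619, 0.776, 0.241, 1.71 and 0.577 CPM in batch B. Thus 5 RYGB animals stood above every sham animal, while most of the others lay within the sham range. The log2 fold change was 2.84 ± 0.91 (SE), with an adjusted p of 0.0315 in edgeR's quasi-likelihood test with Benjamini-Hochberg adjustment. Within batch A it was 2.15 (edgeR adjusted p = 0.233) and within batch B 4.12 (edgeR adjusted p = 0.0691) in a model of all libraries. When the animals of batch B were fitted alone it was 4.14 and passed (edgeR adjusted p = 0.0134), and for batch A alone it was 2.17 (edgeR adjusted p = 0.306).

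The same 5 RYGB libraries, replicates 1, 3, 9, 13 and 14, were the RYGB libraries with more than 100 CPM of pituitary markers. Over all groups, the 16 libraries past this limit had Nmu levels between 0.779 and 32.4 CPM with a median of 10.7, and the other 49 had between 0 and 2.4 CPM with a median of 0.581. Nmu in 15 of the 16 was above all other libraries, and the exception was PYY3-36 replicate 3 at 0.779 CPM. Tshb, the β subunit of thyroid-stimulating hormone made by pituitary thyrotrophs, ran from 4.76 to 169 CPM in the 16 and from 0 to 5.85 CPM in the 49. Other markers of the list did not all follow. In RYGB libraries Cga reached 380 CPM, whereas Prl was at most 2.33 CPM and Pou1f1 at most 0.215 CPM. In BWM libraries Prl reached 12900 CPM and Pou1f1 174 CPM. Which pituitary cells gave these RNAs was not tested. Without the 16 libraries the log2 fold change of Nmu was 0.70 (edgeR adjusted p = 0.604), 0 of 10 peptide genes were called, and 21 genes were called in the whole table. The summed pituitary markers ran from 3.08 to 492 CPM in RYGB and 3.93 to 482 CPM in sham animals of batch A, and from 43.4 to 519 and 6.31 to 21.6 CPM in batch B. None of 11 tested pituitary markers passed between RYGB and sham, with a median log2 difference of 0.96 against -0.02 over all tested genes. In batch B alone, where Nmu passed, 3 of 9 tested pituitary markers were higher, with a median of 4.17. In batch A alone 0 of 11 were called, with a median of 0.14. Among the defining markers, Ghrhr had 0 counts in all 3 RYGB libraries of batch B, and Fshb had 0 counts in all 6 sham libraries of batch B. Nmu also missed the threshold without RYGB replicate 14 (log2 1.79, edgeR adjusted p = 0.181), without sham replicate 2 (2.71, edgeR adjusted p = 0.0554), without sham replicate 3 (2.73, edgeR adjusted p = 0.051) and without sham replicate 5 (2.76, edgeR adjusted p = 0.0614). With saline animals as controls the difference was 1.17 (edgeR adjusted p = 1), and without the 13 libraries poor in hypothalamic markers it was 2.72 (edgeR adjusted p = 0.0963).

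**Figure D2:**
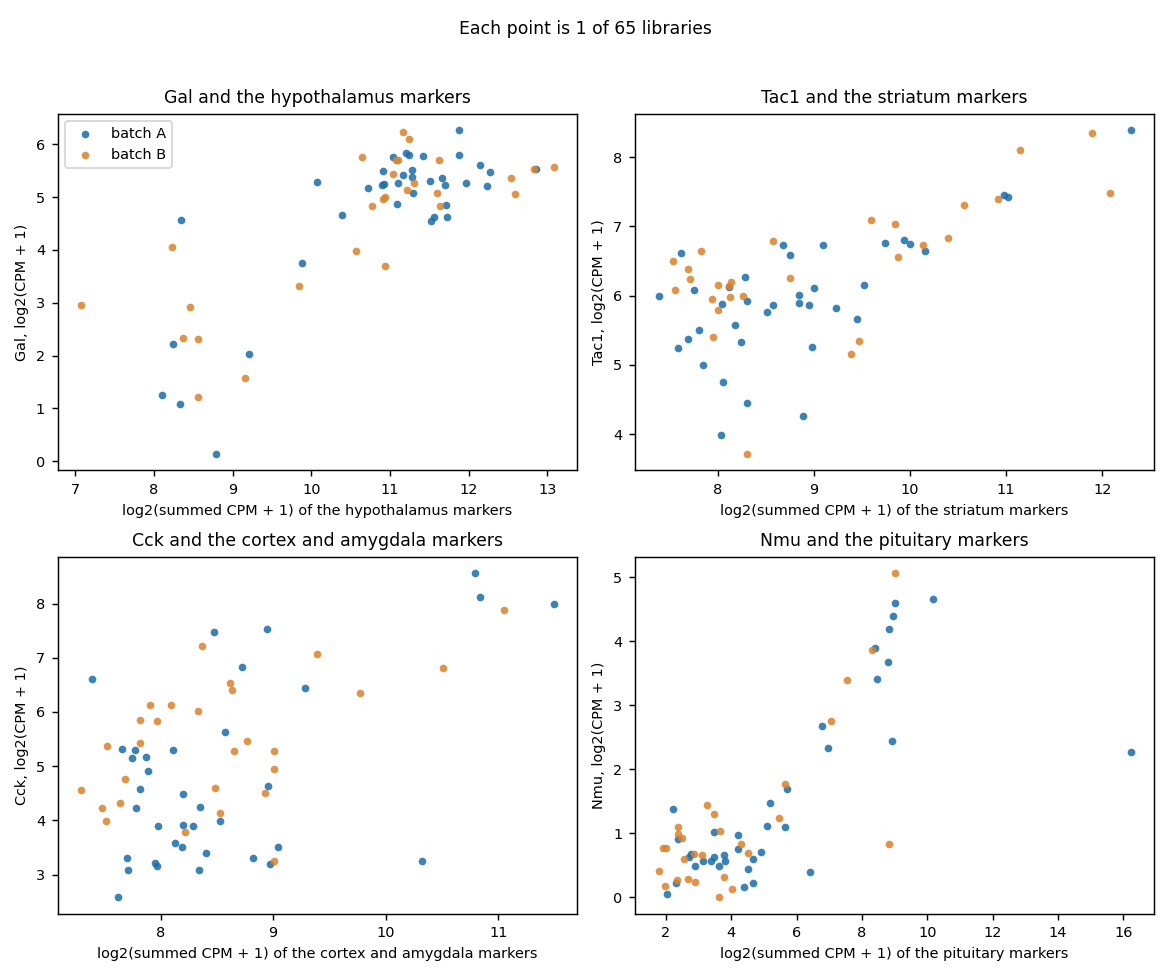
Level of Gal against hypothalamic markers, Tac1 against striatal markers, Cck against markers of cortex and amygdala, and Nmu against pituitary markers, each as log2 of CPM + 1 in 65 libraries. Nmu was at most 2.4 CPM in the 49 libraries with up to 100 CPM of pituitary markers and reached 32.4 CPM past it.

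Nts, whose peptide lowers food intake and acts on dopamine signalling, was the gene nearest to the threshold after Nmu. It ran from 7.51 to 34 CPM with a median of 19.9 in RYGB, and from 11.7 to 76.6 CPM with a median of 45 in sham animals. The sham animals of batch B were the high ones, at 45, 71.7, 66.3, 69.8, 20.3 and 76.6 CPM, whereas those of batch A had 20, 11.7, 17, 47.2 and 37.1 CPM. The log2 difference of RYGB from sham was -0.75 ± 0.30 (SE, edgeR adjusted p = 0.0846), with -0.36 within batch A and -1.25 within batch B. Without the 13 libraries poor in hypothalamic markers, 4 of which were sham, it was -1.04 with an edgeR adjusted p of 0.0141. Without the 16 libraries rich in pituitary markers it was -0.31 (edgeR adjusted p = 0.715). Without a batch term it was -1.03 (edgeR adjusted p = 0.00953).

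The other 8 genes did not pass the test between RYGB and sham. At an unadjusted p under 0.05 in edgeR, Nmu and Nts were counted, 2 of 10, against 30% of all tested genes. Vip, a peptide of light-receiving neurons in the suprachiasmatic nucleus, had 2.66 to 41.6 CPM (median 8.49) in RYGB and 1.54 to 22.9 CPM (median 2.36) in sham animals, and its log2 difference was 0.98 ± 0.54 (SE, edgeR adjusted p = 0.214). Among sham animals, replicates 2, 7 and 11 had 20, 22.9 and 14.1 CPM, and the other 8 had at most 5.5 CPM. Adcyap1, whose product PACAP acts in feeding and stress circuits, had 37.5 to 108 CPM (median 70.4) in RYGB and 1.97 to 103 CPM (median 44.2) in sham, a log2 difference of 0.71 ± 0.49 (SE, edgeR adjusted p = 0.329). No RYGB library was as low in Adcyap1 as the lowest sham libraries. Gal, a peptide that raises food intake, had 12.4 to 54.5 CPM (median 40.3) in RYGB and 1.39 to 76.5 CPM (median 37.5) in sham, with a log2 difference of 0.03 ± 0.53 (SE).

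Tac1 had 20.9 to 105 CPM (median 59.4) in RYGB and 14.9 to 324 CPM (median 89.5) in sham animals, a log2 difference of -0.33 ± 0.36 (SE). Cck, a satiety peptide of gut and brain, had 4.98 to 276 CPM (median 18.1) in RYGB and 10.4 to 253 CPM (median 22.7) in sham, a difference of -0.14 ± 0.64 (SE). For Cck a few libraries lay far above the rest in either group, and for Tac1 in sham alone. Grp, which acts in the bombesin family, had medians of 3.68 and 3.79 CPM (log2 difference 0.49 ± 0.47, SE), and the difference turned to -0.32 without RYGB replicate 6 at 39.3 CPM. Nms, a peptide of suprachiasmatic neurons, had medians of 0.443 and 0.22 CPM (1.01 ± 0.92, SE). Nucb2, whose peptide nesfatin-1 lowers food intake, had medians of 47.1 and 47.9 CPM and a difference of 0.02 ± 0.16 (SE), the narrowest error of the 10. The median log2 difference of the 10 genes was 0.26, against -0.02 over all tested genes.

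The sign of several of these uncalled differences changed with the batch or with the libraries kept. Within batch A and batch B, in this order, the log2 difference of RYGB from sham was -0.01 and -1.10 for Tac1, -0.78 and 0.74 for Cck, 0.73 and -0.38 for Grp and 0.14 and -0.07 for Nucb2. It was 1.32 and 0.20 for Vip, 0.94 and 0.78 for Adcyap1, 2.32 and 0.65 for Nms and 0.17 in both for Gal. Thus Cck, Grp and Nucb2 pointed in opposite directions in the 2 periods. Without the 13 libraries poor in hypothalamic markers, Cck was at 1.59, Gal at -0.57, Nucb2 at -0.16, Adcyap1 at 0.14, Nms at 0.49, Vip at 0.99, Grp at 0.48 and Tac1 at -0.36. Without the 16 libraries rich in pituitary markers, Tac1 was at 0.11, Cck at 0.01, Gal at 0.32, Grp at 0.82, Adcyap1 at 0.88, Vip at 0.98, Nms at 0.96 and Nucb2 at 0.11. None of these values passed the test.

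Markers of the tissue pieces were compared between RYGB and sham in the same model. There, 6.52% of all tested genes were called higher and 6.53% lower. None of 24 hypothalamic markers passed, with a median log2 difference of 0.26, and none of 12 cortex and amygdala markers (-0.32), 13 neuronal markers (-0.17) or 11 meningeal markers (1.36). For the meningeal list, 8 of 11 were higher with a median of 3.52 in batch A alone, and 0 of 11 with a median of -0.82 in batch B alone. Striatal markers had a median of -1.15, and 1 of 12 was lower, Foxp1 by -0.81 (edgeR adjusted p = 0.0468). Choroid plexus markers had a median of 1.31, and 1 of 10 was higher, Kl by 2.47 (edgeR adjusted p = 0.00113). Of 14 thalamic and habenular markers 1 was lower, Grid2ip by -1.27 (edgeR adjusted p = 0.0372), and of 12 glial markers 1 was higher, Cx3cr1 by 0.59 (edgeR adjusted p = 0.0289). Striatal markers summed to 196 to 598 CPM in RYGB and 166 to 1140 CPM in sham animals of batch A, and to 244 to 276 and 185 to 4330 CPM in batch B, with the highest library a sham animal in both batches. The part of these tissues in the values of the 10 genes was not tested.

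**Figure D3:**
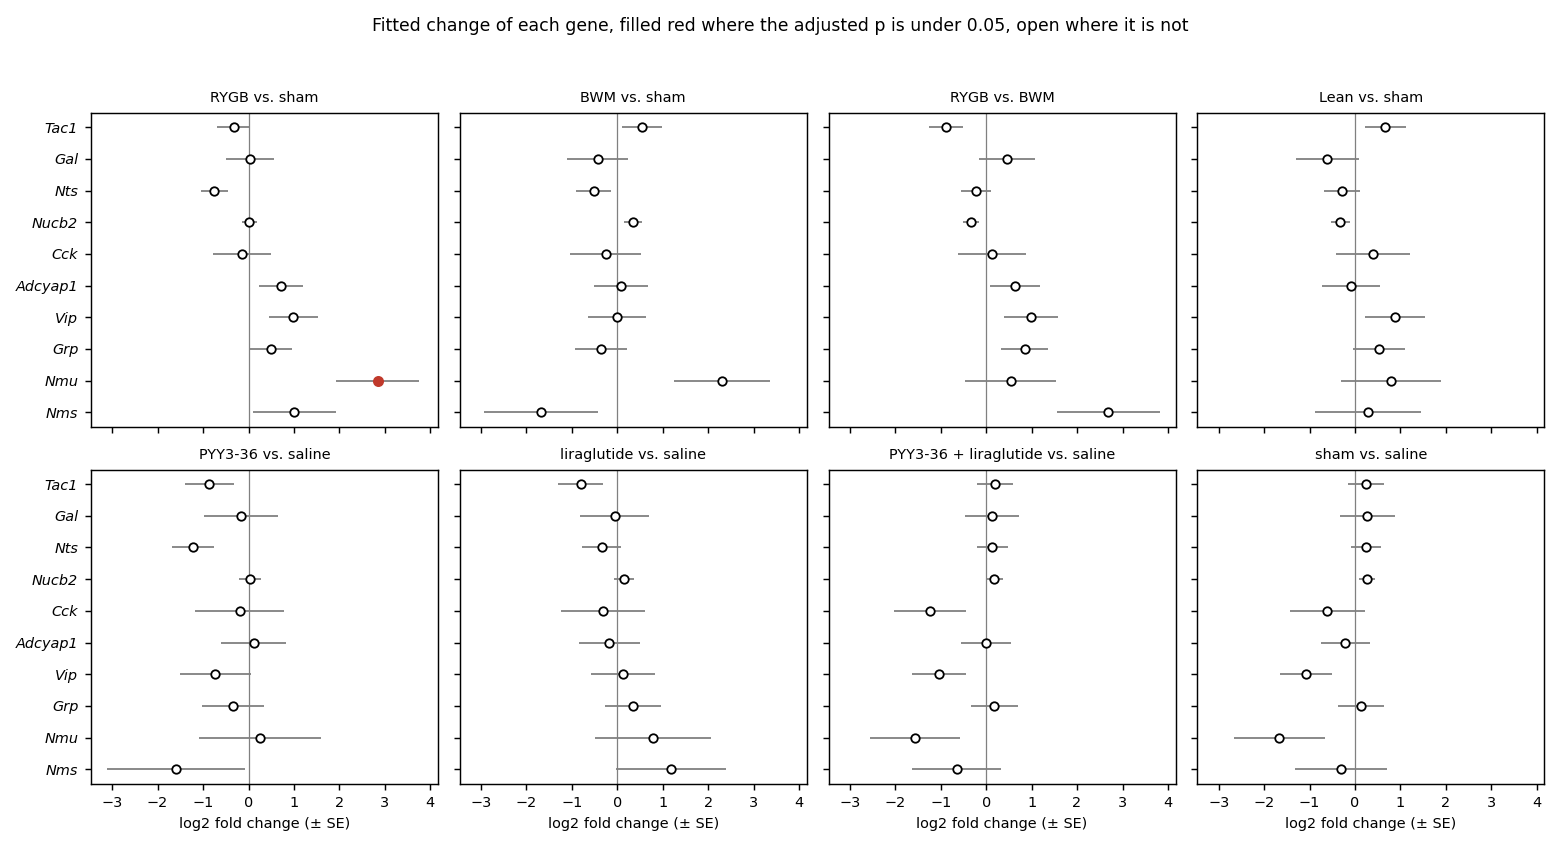
Log2 fold change with its SE for each of the 10 genes in 8 comparisons from the edgeR model, with filled red points where the adjusted p is under 0.05. The single red point is Nmu in RYGB vs. sham, at 2.84.

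Receptors of the 10 peptides and of related peptides of the same families were examined in the same comparison. Among the receptors named below, Tacr3 and Nmbr are those of neurokinin B and neuromedin B, which are not among the 10 peptides. Of 19 receptor genes 18 were tested (Nmur1 was not), and 3 were higher and 1 lower after RYGB, with a median log2 difference of 0.35 against -0.02 over all genes, where 6.52% of all genes were called higher and 6.53% lower. The list partly holds receptor families that the study itself named from these animals, so its direction is not independent evidence. Tacr3, the neurokinin B receptor of the tachykinin family, had 2.94 to 15.5 CPM (median 7.5) in RYGB and 1.74 to 3.36 CPM (median 2.3) in sham animals of batch A. In batch B it had 7.33 to 13.8 CPM (median 8.07) and 1.04 to 5.26 CPM (median 2.72). The groups overlapped in batch A and did not in batch B. The log2 fold change was 1.54 ± 0.29 (SE, edgeR adjusted p = 0.00115). Galr1, a galanin receptor, had 0.646 to 5.66 CPM (median 2.87) in RYGB and 0.0518 to 1.64 CPM (median 0.865) in sham, a log2 fold change of 1.55 ± 0.50 (SE, edgeR adjusted p = 0.0309). The call for Galr1 was lost without any 1 of RYGB replicates 12 and 13 and sham replicates 2, 3 and 5, with edgeR adjusted p up to 0.07.

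Grpr and Nmbr, receptors of the bombesin-like peptides, moved in opposite directions. Grpr, which binds gastrin-releasing peptide, was read at very low counts, with 0 to 37 counts in RYGB (0 in 2 of 14) and 0 to 3 counts in sham animals (0 in 8 of 11), and passed the test (edgeR adjusted p = 0.00961). Nmbr, the neuromedin B receptor, had 0.574 to 2.19 CPM (median 1.29) in RYGB and 2.18 to 8.15 CPM (median 3.42) in sham animals of batch A. In batch B it had 1.57 to 2.18 CPM (median 2.12) and 2.12 to 5.19 CPM (median 2.48). The ranges of the groups met at their ends in both batches, and the log2 fold change was -1.18 ± 0.24 (SE, edgeR adjusted p = 0.00192). With each batch fitted alone, Nmbr was at -1.63 in batch A (edgeR adjusted p = 0.0135) and -0.52 in batch B (edgeR adjusted p = 0.43). Tacr3 was called in each batch alone (1.62 and 1.7), and Galr1 and Grpr in neither. Against saline animals, 0 of the 18 receptors and only 1 gene of the whole table were called, and Tacr3 was at 0.52 and Nmbr at -0.48. Without the 13 libraries poor in hypothalamic markers, Tacr3 (1.37) and Nmbr (-1.26) were called and the other receptors were not. Without the 16 libraries rich in pituitary markers none was called, with Tacr3 at 1.47 (edgeR adjusted p = 0.0676), Nmbr at -1.29 (edgeR adjusted p = 0.0582) and Galr1 at 1.63.

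Among 16 genes of peptide processing and dense core vesicles, 3 were higher after RYGB and 0 lower, with a median log2 difference of 0.13. For this list and those below, the share of all tested genes called was 6.52% higher and 6.53% lower. Ece1, an endothelin-converting peptidase, was higher by 0.66 (edgeR adjusted p = 0.008). Cadps and Cadps2, which prime dense core vesicles for release, were each higher by 0.75, with edgeR adjusted p of 0.0325 and 0.0179. The call for Cadps was lost when 1 animal was left out in 7 of 25 cases, RYGB replicates 4, 12 and 13 and sham replicates 4, 5, 6 and 10, with edgeR adjusted p up to 0.0833. Cadps was at 0.24 in batch A alone (edgeR adjusted p = 0.706) and at 1.6 in batch B alone (edgeR adjusted p = 0.00218). Cadps2 was called in batch A alone (0.95), and Ece1 in both (0.87 and 0.71). Against saline animals Ece1, Cadps and Cadps2 were at 0.25, 0.14 and 0.09, and none was called. Without the 16 libraries rich in pituitary markers they were at 0.49, 0.58 and 0.91 and none was called, and without the 13 poor in hypothalamic markers Ece1 (0.58) and Cadps (0.87) were called and Cadps2 (0.44) was not. Of 11 precursors of related peptides 0 were called, with a median of -0.02. Vip, Grp and Nms are peptides of the suprachiasmatic nucleus, and 2 of 11 other markers of that nucleus were higher after RYGB, Lhx1 by 1.66 (edgeR adjusted p = 0.0268) and Rorb by 0.42 (edgeR adjusted p = 0.0448). Of 16 clock genes 2 were higher, Bhlhe40 and Per3 by 0.51 each (edgeR adjusted p = 0.0419 and 0.0457). Against saline, 0 of these suprachiasmatic markers and clock genes were called, and 0 without the 16 libraries rich in pituitary markers. In the whole table these settings called only 1 and 21 genes, so the loss of a call is not particular to these lists. Without the 13 poor in hypothalamic markers, 1 of 11 and 2 of 16 were higher.

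Food restriction meant to match the body weight of RYGB rats was compared with sham, as a view of weight loss without the bypass. The study reported that BWM rats ended heavier than RYGB rats, so this contrast does not fully separate weight from surgery. None of the 10 genes passed between BWM and sham (edgeR, 0 of 10; 0.32% of all tested genes), and DESeq2 called 0 as well. At an unadjusted p under 0.05 in edgeR, 1 of the 10 and 12.3% of all genes were counted. That gene was Nmu, at 1.59, 1.02, 0.357, 0.631, 3.84, 11.8 and 24.1 CPM in BWM replicates 1 to 7. The highest 3, replicates 5 to 7, were the 3 BWM libraries with more than 100 CPM of pituitary markers. The log2 difference was 2.30 ± 1.06 (SE, edgeR adjusted p = 0.353), and 0.78 without the libraries rich in pituitary markers. Of 11 pituitary markers 5 were higher in BWM than in sham, with a median log2 difference of 3.44. Their sum had a median of 29.3 CPM in BWM, and of 12.8 and 10.5 CPM in sham animals of batches A and B. Without the libraries rich in pituitary markers, 0 genes of the whole table were called between BWM and sham. Nucb2 was 117 CPM in BWM replicate 5, the library with 77000 CPM of pituitary markers, and 29.2 to 61 CPM in the other 6 (log2 difference of BWM from sham 0.35 ± 0.20, SE, edgeR adjusted p = 0.47).

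Between RYGB and BWM, the latter restricted in food toward the weight of the former, edgeR again called 0 of 10 genes (0.343% of all tested genes) and DESeq2 called 0. In edgeR, 2 of the 10 and 12.6% of all genes had an unadjusted p under 0.05. Tac1 was 336 CPM in BWM replicate 1, and 105, 36.7, 66.4, 59.9, 68.6 and 25.9 CPM in replicates 2 to 7, against 20.9 to 105 CPM in RYGB. The log2 difference was -0.88 ± 0.38 (SE, edgeR adjusted p = 0.344), and -0.09 without the libraries poor in hypothalamic markers, of which BWM replicate 1 is 1. Nms was at most 0.218 CPM in BWM and 0 to 1.93 CPM (median 0.443) in RYGB, where 2 of 14 libraries had no count. Its log2 difference was 2.69 ± 1.13 (SE, edgeR adjusted p = 0.338), and 2.60 within batch A. Nmu differed by 0.54 ± 1 (SE) between RYGB and BWM, and by -0.24 within batch A, which holds all BWM animals. The pituitary markers were lower in RYGB for 5 of 11, with a median log2 difference of -2.37. BWM replicate 5 reached 77000 CPM in their sum. The median sum was 29.3 CPM in BWM, 33.1 CPM in RYGB of batch A and 132 CPM in RYGB of batch B, so a typical RYGB library was not lower. Without the libraries rich in pituitary markers, 0 genes of the whole table were called in this comparison.

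Lean animals were compared with sham animals, and 0 of 10 genes were called in edgeR (0% of all tested genes) and 0 in DESeq2, with 0 of 10 at an unadjusted p under 0.05 (12.2% of all genes). Tac1 had 49.8 to 175 CPM (median 100) in lean animals, a log2 difference of 0.67 ± 0.46 (SE). Cck was 377 CPM in lean replicate 2 and 8.15 to 34.7 CPM in the other 5. Gal had 1.11 to 54.2 CPM (median 28.5), a difference of -0.61 ± 0.70 (SE). Nucb2 had 23.8 to 55.6 CPM (median 34.5), a difference of -0.32 ± 0.21 (SE).

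The gut hormone treatments were compared with saline to ask whether hormones that rise after RYGB act on the same genes. PYY3-36 changed 0 of 10 genes by edgeR's adjusted p (0% of all tested genes) and 0 by DESeq2. At an unadjusted p under 0.05 edgeR counted 1 of 10, against 7.54% of all genes. That gene was Nts, with 15.2, 3.75, 14.7 and 38.5 CPM in the 4 PYY3-36 animals, 19.7, 44.5, 21.6, 34.5 and 45.5 CPM in saline animals of batch B and 23, 31.3 and 60 CPM in those of batch A. The lowest 3 PYY3-36 animals were below all saline animals, and the highest was within their range. The log2 difference was -1.22 ± 0.47 (SE, edgeR adjusted p = 0.652), and with sham animals as controls it was -1.47 with an edgeR adjusted p of 0.0381. Within batch B, which holds all PYY3-36 animals, the difference of Nts from saline was -0.88 (edgeR, unadjusted p = 0.0718). There Nmu was at 2.88 (edgeR, unadjusted p = 0.0478, adjusted p = 0.492), with 9.45 CPM in PYY3-36 replicate 1, a library rich in pituitary markers, and 0.0949 to 0.779 CPM in the other 3.

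Liraglutide changed 0 of 10 genes in edgeR (0% of all tested genes) and 0 in DESeq2, with 0 of 10 at an unadjusted p under 0.05 (2.08% of all genes). With all saline animals as controls, the log2 difference farthest from 0 was that of Nms, 1.18 ± 1.20 (SE). Nms was 0.12, 0, 0, 0.0989 and 3 CPM in the 5 liraglutide animals, so 1 animal carried the difference, which was -2.23 without it. Tac1 had 39.5 to 113 CPM (median 54.2) with liraglutide and 34.5 to 274 CPM (median 75.6) with saline, a difference of -0.81 ± 0.50 (SE). Nmu was 13.6 CPM in replicate 1, the liraglutide library rich in pituitary markers, and 0.89 to 2.4 CPM in the other 4. Within batch B, which holds all liraglutide animals, the difference of Nmu from saline was 3.39 ± 1.39 (SE, edgeR, unadjusted p = 0.0181, adjusted p = 1) and that of Nms 2.03.

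PYY3-36 + liraglutide changed 0 of 10 genes in edgeR (0.00457% of all tested genes) and 0 in DESeq2, with 0 of 10 at an unadjusted p under 0.05 (2.53% of all genes). Cck had 7.44 to 86.2 CPM (median 20.6) with both agents and 8.83 to 236 CPM (median 53.4) with saline, a log2 difference of -1.24 ± 0.79 (SE), with 1.10 within batch A and -1.63 within batch B. Vip had 3.62 to 13.1 CPM (median 5.15) against 3.09 to 32.3 CPM (median 9.59), a difference of -1.04 ± 0.59 (SE). Nucb2 had 29.4 to 68 CPM (median 41.5) against 27.3 to 52.7 CPM (median 41.3), a difference of 0.18 ± 0.18 (SE). The groups overlapped for all 10 genes. PYY3-36, liraglutide and their combination were set against the same saline animals, so these comparisons are not independent. None of the receptors, related peptides or processing genes passed in a comparison between groups other than RYGB vs. sham.

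The control groups were set against each other, since both RYGB and the hormones rest on them. Sham and saline differed in 0 of 10 genes in edgeR (0.0137% of all tested genes) and 0 in DESeq2, with 0 of 10 at an unadjusted p under 0.05 (12.9% of all genes). The contrast turned with the batch for some genes. Cck in saline animals was 22.9, 8.83 and 14.1 CPM in batch A and 236, 69, 84.2, 148 and 37.9 CPM in batch B. In sham animals Cck was 183, 253, 10.4, 13.8 and 10.4 CPM in batch A and 12.8 to 40.4 CPM in batch B. The log2 difference of sham from saline was 2.62 within batch A and -2.19 within batch B, a change of -4.81 ± 1.59 (SE, edgeR adjusted p = 0.235). Nmu in saline animals was 23.2, 4.02 and 0.545 CPM in batch A and 0.136 to 1.13 CPM in batch B, and saline replicates 1 and 2 were rich in pituitary markers. The change of effect between batches passed for 0 of 10 genes in RYGB vs. sham, in PYY3-36 + liraglutide vs. saline and in sham vs. saline, where 0%, 0% and 0.00457% of all genes passed in edgeR. At an unadjusted p under 0.05 these shares of all genes were 10.4%, 3.25% and 11%, and the members counted were 0, 0 and 3 of 10, the last being Nts, Cck and Nmu.

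Batches B and A differed in 2 of the 10 genes, where 40.7% of all tested genes were called. Tac1 was higher in batch B by 0.93 ± 0.29 on the log2 scale (SE, edgeR adjusted p = 0.00763), and Nts by 0.59 ± 0.24 (SE, edgeR adjusted p = 0.0398). By group, Tac1 differed by 0.17 in RYGB, 1.25 in sham, 1.22 in saline and 0.99 in PYY3-36 + liraglutide animals. Nts differed by 0.24, 1.13, -0.20 and 0.93 in the same order. Without the 13 libraries poor in hypothalamic markers the differences were 0.57 (edgeR adjusted p = 0.0346) and 0.64 (edgeR adjusted p = 0.0171). Striatal markers, of which 0 of 12 were called, had a median difference of 0.82 between the batches, and their part in the difference of Tac1 was not tested. Of the related peptides Tac3 (neurokinin B) was higher in batch B by 0.89 (edgeR adjusted p = 0.000458), and of the clock genes Per1, Per2 and Per3 were lower, by -0.85, -0.84 and -1.21 on the log2 scale. The batches are periods of the experiment and also hold different groups.

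Levels of several peptides moved with markers of the tissue in the library. In the 13 libraries poor in hypothalamic markers, Gal ran from 0.0973 to 22.7 CPM (median 3.67), and in the other 52 from 9 to 76.5 CPM (median 37.7). Adcyap1 ran from 0.681 to 24.6 CPM (median 12) and from 9.1 to 108 CPM (median 61.5). Nucb2 had medians of 29.4 and 46.6 CPM in the same order. Cck was the other way round, with medians of 80.2 and 24.8 CPM. Vip (8.74 and 7.39) and Grp (4.54 and 3.59) had medians close to each other. Nmu had medians of 0.604 and 0.871 CPM, but reached 1.71 CPM in the 13 and 32.4 CPM in the 52. Nms had 0 counts in 11 of the 13 and in 12 of the 52, with medians of 0 and 0.219 CPM. All ranges overlapped.

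Tac1 and Cck were high in libraries rich in markers of forebrain regions beside the hypothalamus. In the 12 libraries with more than 1000 CPM of striatal markers, none of them RYGB, Tac1 ran from 98.6 to 336 CPM (median 169), against 12.1 to 136 CPM (median 62.5) in the other 53. In 8 of the 12, Tac1 was above all others. In 6 libraries with more than 1000 CPM of cortex and amygdala markers, Cck ran from 8.47 to 377 CPM (median 244), against 4.98 to 183 CPM (median 23.8) in the other 59. Cck in 4 of the 6 was above all others, and the lowest of the 6 was BWM replicate 1. These limits were chosen after the values were seen. The part of these tissues in the group differences was not tested.

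Across animals the 10 genes were compared in pairs, on log2(CPM + 1) centred within group and batch. Of 45 pairs, 15 passed a permutation test of Pearson's r after Benjamini-Hochberg adjustment, 11 with a positive and 4 with a negative r, and 16 passed by Spearman's rho. Because the 13 libraries poor in hypothalamic markers stand apart, r in the other 52 is given beside each value, and 9 pairs passed in both sets. Gal and Adcyap1 had r = 0.82 and rho = 0.82 over 65 libraries (two-sided permutation test, adjusted p = 0.00015), 0.81 in batch A and 0.85 in batch B, 0.79 without the pair of farthest libraries, and 0.56 in the 52. The relation of Gal with Nucb2 was 0.66 over 65 and 0.33 in the 52, and that of Adcyap1 with Nucb2 was 0.57 and 0.18. The relations with Nucb2 were thus much weaker within the 52 libraries.

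Vip and Grp had r = 0.58 over 65 libraries and 0.51 in the 52, and Vip and Nms had 0.46 and 0.59. Vip with Nms was at 0.20 within batch A but at 0.75 within batch B. Cck was positively related with Vip (0.53, and 0.40 in the 52) and with Grp (0.52 and 0.46), although Cck with Grp fell to 0.35 without the pair of farthest libraries. Tac1 was negatively related with Cck (-0.48, and -0.42 in the 52) and with Vip (-0.43 and -0.41), and positively with Nts (0.39 and 0.45). These values relate shares of RNA of whole tissue pieces, which also share a library.

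**Figure D4:**
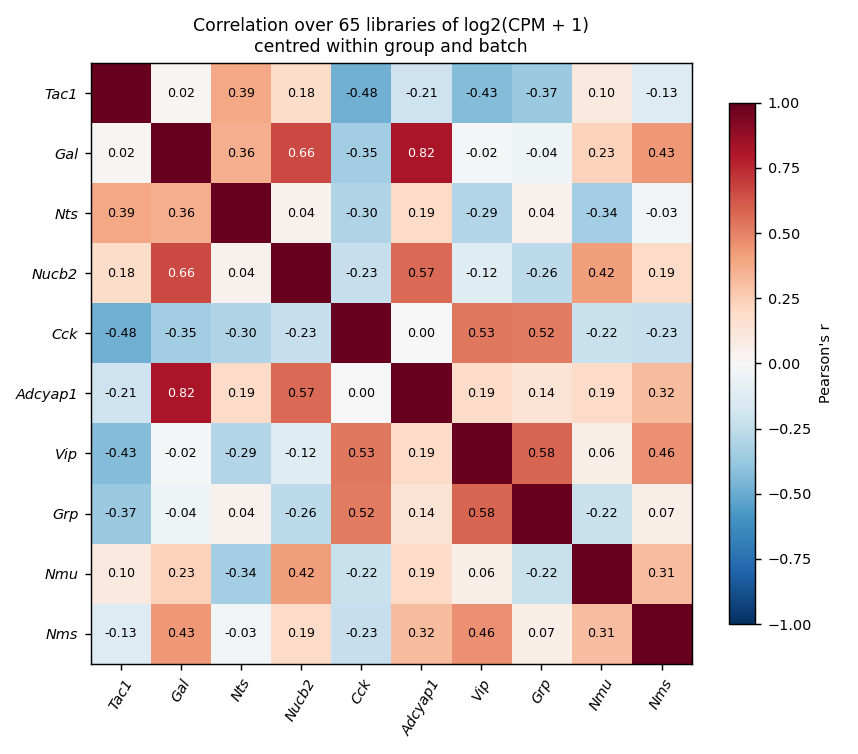
Pearson's r between the 10 genes over 65 libraries, on log2(CPM + 1) centred within group and batch. Gal with Adcyap1 is highest, at 0.82, and Tac1 with Cck is lowest, at -0.48.

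For each gene, the genes with the most similar pattern over the 65 libraries were sought among 17233 genes with a mean of at least 1 CPM. Gal was closest to Gabrq (r = 0.94), Asb4 (0.94) and Calcr (0.93), and Adcyap1 to Arl10 (0.91), Galr2 (0.88) and P2rx2 (0.88). Tac1 was closest to Penk (0.84), the enkephalin precursor, then to Gpr149 (0.82) and RGD1311739 (0.82). Cck was closest to Slc30a3 (0.86), the zinc transporter of synaptic vesicles, then to Nrn1 (0.84) and LOC102549789 (0.81). Nmu was closest to Aox2 (0.96), Tshb (0.91) and Fndc3c1 (0.91). These partners of Nmu did not pass between RYGB and sham, with log2 differences of 2.95 (edgeR adjusted p = 0.096), 2.62 (edgeR adjusted p = 0.264) and 2.25 (edgeR adjusted p = 0.183).

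Among the remaining genes, the likeness was lower for Nts, Vip and Nms. Nucb2 was closest to Spint2 (0.86), Cnpy2 (0.84) and Psme2 (0.83), and the nearest genes of Grp included Robo3 (0.75) and Ephb6 (0.74). Nts was closest to Ufsp1 (0.76), Smim17 (0.73) and Ralyl (0.73). Vip was closest to Cplx3 (0.68), followed by Nf1x (0.65). Nms was closest to Prdm13 (0.70), Sox3 (0.66) and Lmntd1 (0.66). These correlations describe the libraries and carry no test.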

How the data were processed

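RNA of whole hypothalamus was sequenced from one end in 65 rats. The authors trimmed reads with cutadapt, mapped them to Rnor_6.0 with STAR 2.7.2b and counted them on exons of RefSeq annotation 106 with featureCounts 1.6.4, by strand. Reads on several places or genes were counted as fractions, so the deposited values are estimated counts, not whole in 30.3% of nonzero values (tolerance 1e-06). Near-identical copies of a gene can share such reads.

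Values were rounded, which changed no total by more than 0.001%. Genes were kept by filterByExpr (minimum count 10, minimum total 15), scaled by TMM and fitted in R 4.3.3 with edgeR 4.0.16, all libraries in 1 robust quasi-likelihood model with group and batch. CPM and FPKM used TMM-scaled library sizes. DESeq2 1.42.0 was an alternative. Calls are Benjamini-Hochberg adjusted p under 0.05 over 21871 genes. Scripts were tested on simulated data. Relations used 100000 permutations within group and batch, with a pseudocount of 1 CPM and a smallest p of 1e-05. SEs come from the spread between animals in this model, and the limit for a count of 0 covers counting error only. No libraries were duplicates.

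The labels give replicate numbers but no pairing of animals. Liraglutide and saline animals of equal number correlated in all 5 cases (r 0.32 to 0.61). However, saline replicates 1 to 3 are of batch A and all liraglutide animals of batch B. The replicate number as a block changed no call in that comparison. All 10 genes were named throughout, other genes from lists where they passed or as receptors, and the nearest genes by r. Some genes are not reported here. Genes, lists and limits were chosen with earlier results of these data known.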

Additional observations from a re-analysis of the deposited data

Results flagged for a closer look

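In groups of 4 to 10 animals within a batch, 11 of 90 combinations of gene, group and batch held an animal far from the others by Dixon's test, which chance gives in about 1 of 20. Nmu was high in 4 animals. It was 9.63 CPM in lean replicate 6 (0.482 to 0.962 in the others), 13.6 CPM in liraglutide replicate 1 (0.89 to 2.4), 4.44 CPM in sham replicate 4 (0.165 to 0.581) and 1.13 CPM in saline replicate 8 (0.136 to 0.222). Apart from saline replicate 8, these libraries had more than 100 CPM of pituitary markers. Gal was low in BWM replicate 1 at 0.0973 CPM (23.7 to 43.5 in the others) and in PYY3-36 replicate 2 at 6.74 CPM (30.2 to 32.6), and Adcyap1 was low in BWM replicate 1 at 0.681 CPM (36.4 to 82.7). Both libraries were poor in hypothalamic markers. Cck was high in lean replicate 2 at 377 CPM (8.15 to 34.7) and Vip in sham replicate 2 at 20 CPM (1.54 to 2.55), and these libraries were also poor in hypothalamic markers. Nms was high in liraglutide replicate 5 at 3 CPM (0 to 0.12) and in PYY3-36 + liraglutide replicate 9 at 0.432 CPM (0 to 0.047).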

How the results depend on the processing

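Of the members' fold changes under alternatives other than leaving out an animal, 980 kept their side of the threshold, 8 lost the call, 4 gained it and 1 called value turned. Of the differences that were not called, 104 changed sign under these alternatives and 83 when 1 animal was left out. In RYGB vs. sham, 1 gene was called, and 0 with saline controls (Nmu 1.17), with sham and saline together (2.01), in batch A alone (2.17, against 1 call in batch B alone) and without libraries rich in pituitary markers (0.70), but 2 without a batch term. With the replicate number as a block (replicate block), 0 were called and Nmu turned to -0.03 (edgeR adjusted p = 0.991). The labels do not say whether equal numbers mark paired animals. Of the RYGB and sham animals of equal number, 4 of 11 pairs correlated above 0.1 (r -0.4 to 0.34), which cannot decide it. Leaving out 1 animal gave 0 to 1 calls and Nmu between 1.79 and 3.41. Over all genes, RYGB vs. sham gave between 1 call (saline controls) and 5587 (no batch term), with 1618 under the block, 529 in batch A alone and 3358 in DESeq2. PYY3-36 set against sham gave 1 call (Nts). Between batches, 2 genes were called, 1 without the filter and 1 under the replicate block (Nmu -3.49, with Tac1 at 1.29 and Nts at 0.56 no longer past the threshold), and 1 to 2 when 1 animal was left out, where 10 animals each cost the call of Nts. Lean vs. sham gave 0 genes, 2339 without a batch term and 203 without libraries poor in hypothalamic markers. Of the relations between genes 15 passed, 8 in batch A alone and 7 in batch B alone. The cause of these changes was not tested. The 2 sets of libraries left out by marker level were chosen after seeing the data. Low counts limit Nms and Grpr, and 3 RYGB animals limit batch B.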
